A study of Mus musculus with 17 samples.

Results

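The quantity described here is the difference between 2 responses to transforming growth factor beta 1 (TGF-β1): the change in gene expression after TGF-β1 in wild-type macrophages minus the change after TGF-β1 in Smad3-knockout macrophages. It is the interaction of treatment and genotype, and it was computed for each gene over all 17 of the series' 17 libraries and for 12158 of the 37620 genes in the deposited table, those whose level was 1 TPM or more (a share of a library's transcripts, scaled by gene length) in at least 3 libraries. No measured value chose the libraries. As labelled, the wild type had 5 control and 4 TGF-β1 libraries, and the Smad3 knockout had 5 control and 3 TGF-β1 libraries. All were C57BL/6J bone marrow cells turned into macrophages over 7 days with macrophage colony-stimulating factor at 50 ng/ml. Treatment was TGF-β1 at 5 ng/ml for 5 further days, in a protocol text that stands unchanged on the control libraries too. The kind of knockout allele and the number of mice are not given, and the labels leave it unclear if each library is of 1 cell or of many. The sort for smooth muscle actin in the design text is not tied to any library. The p-values therefore measure the spread between libraries, which may be technical or between cells of 1 culture.

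TGF-β1 binds a pair of receptor kinases, TGFBR2 and TGFBR1, which phosphorylate the transcription factors SMAD2 and SMAD3. These join SMAD4, enter the nucleus and bind regulatory DNA, SMAD3 by direct contact with a short GTCT-containing box. The study is about macrophages that TGF-β1 turns toward contractile, matrix-making myofibroblasts, and the comparison asks how far the response depends on Smad3. A gene whose response needs Smad3 would change after TGF-β1 in wild type and not in the knockout, and would so have a difference of effects away from 0. In what follows that difference is always wild type minus knockout, on the log2(TPM + 1) scale, which understates changes of low genes. A positive value means that the wild-type response was the more upward one.

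No gene passed for the difference of effects. Limma, with Benjamini-Hochberg adjustment over all 12158 genes, called 0 genes at an adjusted p under 0.05 (0% of those tested), and the smallest adjusted p was 0.300, shared by Ctsd and Tmem175; for every other gene it was 0.997 or more. At an unadjusted p under 0.05 there were 569 genes, 4.68% of those tested, with 296 (2.43%) where the wild-type response was higher and 273 (2.25%) where it was lower. The 20 equal bins of the p-value from 0 to 1 held 565 to 728 genes each, and the bin nearest 0 was not among the fullest. The same fit called 22 genes (0.181%) for TGF-β1 in wild type and 1 (0.00823%) in the knockout. A call in one genotype and not in the other is not a test of the difference, which is given below for genes called in wild type. If a library held many cells, a change in the share of a cell type and a change in RNA per cell cannot be told apart.

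**Figure D1:**
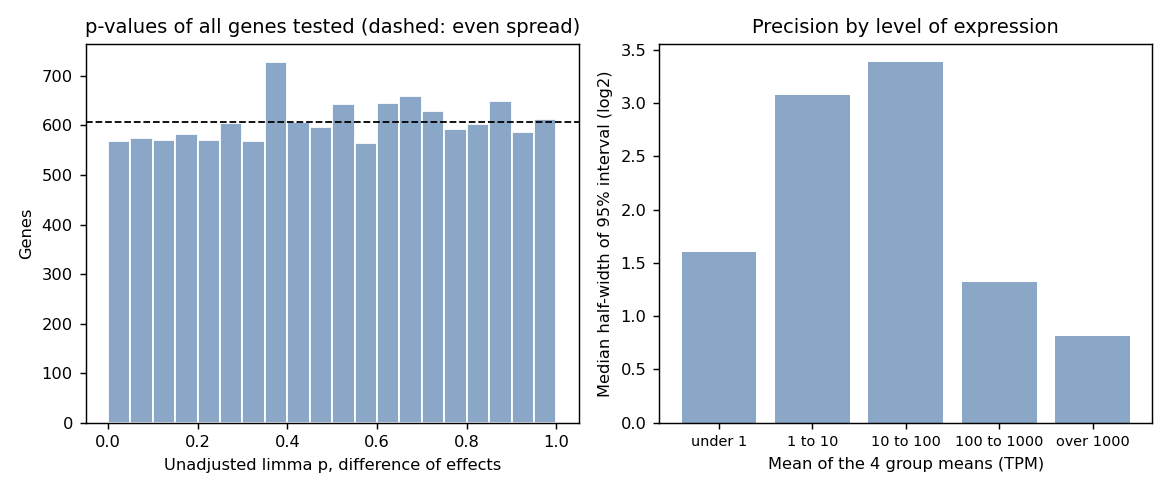
Left, number of genes (vertical axis) in each of 20 bins of the unadjusted limma p for the difference of TGF-β1 effects (horizontal axis), with a dashed line for an even spread over bins; right, median half-width of the 95% interval of that difference (log2) for genes grouped by mean TPM. The lowest bin of p holds 569 genes, and the half-width is 0.81 for genes over 1000 TPM and 3.38 for those at 10 to 100 TPM.

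How small a difference these libraries could show depended on the level of the gene. The median standard error of the difference was 1.43 over all genes, and the median half-width of its 95% interval was 2.98. For the 5863 genes with a mean of 10 to 100 TPM the half-width was 3.38, for the 1521 genes at 100 to 1000 TPM it was 1.32, and for the 111 genes over 1000 TPM it was 0.81. The interval lay wholly between -1 and 1, a difference of less than 2-fold either way, for 107 genes (0.88%), 37 of them over 1000 TPM. Among them were 7 of the 13 mitochondrially encoded genes, such as mt-Cytb, a respiratory chain subunit, with a difference of 0.02 (95% interval -0.75 to 0.78), and mt-Nd5 with 0.02 (-0.87 to 0.90). The lysosomal membrane proteins Lamp1 (0.11, -0.50 to 0.72) and Lamp2 (0.03, -0.91 to 0.98), the glycoprotein progranulin encoded by Grn (0.11, -0.55 to 0.77), the glycolytic genes Aldoa and Eno1 and the chaperone gene Hspa8 were the other list members there. For these genes a genotype difference of 2-fold or more lay outside the interval, whereas for the gene of median precision the interval reached 2.98 to each side on the log2 scale.

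Smad3 itself (ENSMUSG00000032402) was the check of the labels, and with TGF-β1 its transcript went against them. Wild type minus knockout was 1.16 in controls (limma unadjusted p = 0.207) and -2.47 with TGF-β1 (limma unadjusted p = 0.0328). Smad3 was listed at 0 in 9 of the 17 libraries. In wild type it was at 0, 0.01, 0, 15.4 and 11.5 TPM in control libraries 1 to 5 and at 0 in all 4 TGF-β1 libraries. Those labelled knockout held 0, 0.27, 1.93, 0 and 0 TPM in controls and 6.18, 0.01 and 22.3 TPM with TGF-β1. Its highest value thus stood in a library labelled knockout and treated. The difference of effects was -3.63 ± 1.396 (SE, limma unadjusted p = 0.0173, adjusted p = 0.997). The two-sided exact permutation p was 0.0306 over 8820 exchanges of genotype labels within each treatment (smallest possible 0.000113). Such exchanges assume no genotype effect in either treatment, so that p is not for the difference of effects alone. In 9 of the 17 fits that left out 1 library the exact permutation p was over 0.05, from 0.0503 to 0.0661, and without TGF-β1 library 3 labelled knockout the difference was -2.59. Values per gene do not show whether the deleted part was transcribed. Npy, which encodes neuropeptide Y, was at 0.09 to 0.99 TPM in all wild-type libraries. In all those labelled knockout it was at 173 to 1343 TPM. It was picked from the genes called between these same labels. Its separation is therefore no check of the labels and does not show which libraries lack Smad3. Of 18 genes called between genotypes in controls (0.148%) and 19 with TGF-β1 (0.156%), 14 were called in both, all 14 in the same direction, and their differences of effects ran from -0.86 to 0.74 (smallest unadjusted p 0.182). Among the 14 are Rps2, Rpl29 and 3 genes named as ribosomal protein pseudogenes, whose reads can be divided between near-identical copies. ENSMUSG00000071476 and ENSMUSG00000072548 are also among them, with identical effects and ranges, and are no separate observations. Many of the 14 were near 0 TPM in 1 genotype, where a fall with TGF-β1 could not show. Below, directions between genotypes rest on the labels.

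Markers of macrophages were present throughout. Adgre1, which encodes the macrophage surface protein F4/80, was at 25.4 to 591 TPM in all 17 libraries, and Csf1r, the receptor for macrophage colony-stimulating factor, at 177 to 1197 TPM. Summed fibroblast markers reached at most 9.72 TPM, mast cell markers 11.01, erythroid markers 4.64 and dendritic cell markers 19.2 TPM in any library, with 6 of 10 fibroblast markers listed at 0 in all libraries, Col1a1 among them. Lymphocyte markers summed to 53 TPM in 1 knockout TGF-β1 library and to at most 2.09 in the rest. Neutrophil markers reached 133 and endothelial markers 59.1 TPM, in wild-type controls. Of the markers of cell types other than macrophages 6 could be tested, and none had an unadjusted p under 0.05 for the difference of effects. The macrophage markers were all tested, and of these Tyrobp alone had such a p (difference 0.90, limma unadjusted p = 0.0233). Cells in cycle differed more: the mean log2(TPM + 1) of 42 replication and mitosis genes ran from 3.11 to 6.34 in wild-type controls, 6.28 to 7.04 with TGF-β1, 4.27 to 6.26 in knockout controls and 6.45 to 6.81 with TGF-β1. In 6 of 17 libraries over 10% of moderately expressed genes were listed at 0.

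The genes with the smallest p in each direction were drawn up by a fixed rule, 10 a direction with a mean of at least 10 TPM in 1 group; none of the 20 passed, and their values are a description of where the responses parted most. The plot of effects by genotype shows all genes with 19 of these marked.

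**Figure D2:**
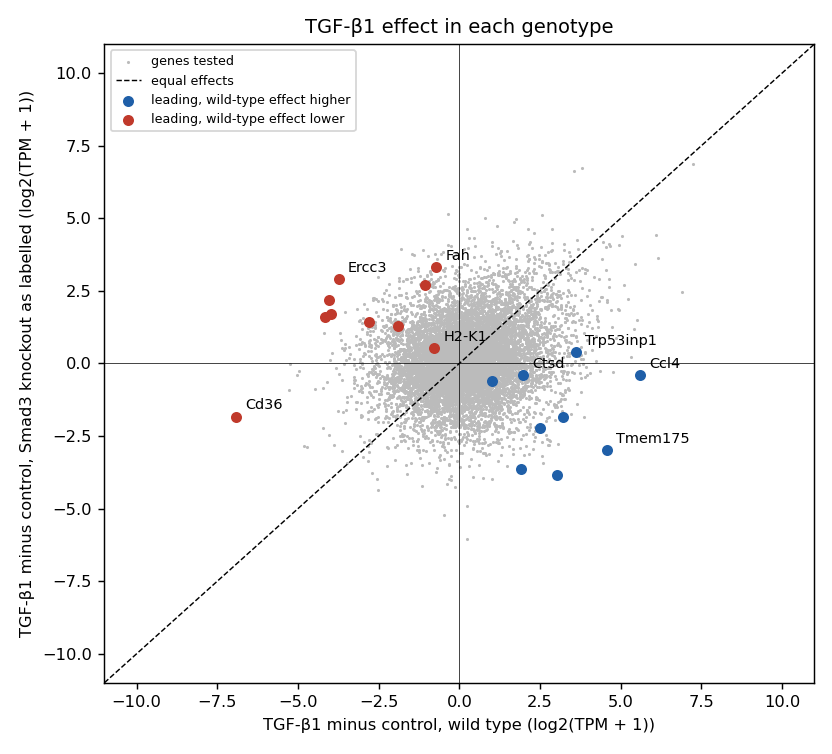
Each grey point is 1 of 12158 genes, with the TGF-β1 effect in wild type on the horizontal axis and in libraries labelled knockout on the vertical axis, both as log2(TPM + 1) differences; the dashed line marks equal effects. Blue and red points are 19 of the 20 genes of smallest p, and they lie far from the line, Tmem175 at 4.57 in wild type and -2.98 in knockout, while Ctsd (1.98 and -0.40) and H2-K1 (-0.78 and 0.53) lie near the centre.

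Ctsd (ENSMUSG00000007891) encodes cathepsin D, an aspartic protease of lysosomes and among the most abundant transcripts of these cells. In wild type it was at 9931, 5633, 11722, 4442 and 4365 TPM in control libraries 1 to 5 and at 31342, 27631, 16485 and 32752 TPM in TGF-β1 libraries 1 to 4. Those labelled knockout held 5548, 12633, 9270, 8631 and 11663 TPM in controls and 9714, 5591 and 6261 TPM with TGF-β1. The 4 wild-type TGF-β1 libraries lay above all other 13 libraries, and the 2 knockout groups overlapped. The difference of effects was 2.38 ± 0.44 (SE; 95% interval 1.46 to 3.29; limma unadjusted p = 2.66e-05, adjusted p = 0.300). It stayed between 2.22 and 2.62 in the 17 fits that left out 1 library. With the cell cycle mean of each library as a covariate it was 2.47 and passed (limma adjusted p = 0.00027), the 1 gene to do so there. The adjusted p ran from 0.00027 to 0.931 over the 29 alternatives. That covariate moves with TGF-β1 itself, as given above, and in wild-type controls the libraries with the lowest cell cycle means, 3 (3.11) and 1 (3.90), had the highest Ctsd. Ctsb, encoding cathepsin B, had a difference of 0.63 (unadjusted p = 0.0641).

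Tmem175 (ENSMUSG00000013495), a potassium and proton channel of lysosomes, had the other adjusted p of 0.300. It was at 0, 0, 0, 0.06 and 13.6 TPM in wild-type controls and at 42.2, 46.5, 38.2 and 34.7 TPM with TGF-β1, and at 35.3, 35.4, 41.2, 16.3 and 77.3 TPM in knockout controls and 14.5, 0 and 6.02 TPM with TGF-β1. The groups did not overlap in either genotype, and the effects had opposite signs, 4.57 in wild type and -2.98 in knockout. The difference was 7.55 ± 1.47 (SE; 95% interval 4.49 to 10.6; limma unadjusted p = 4.93e-05), and 3.67 with pseudocount 10. The genotypes already stood apart in controls, by -4.44 (wild type minus knockout), and it is the control level in wild type and the treated level in knockout that were low.

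Only 5 genes (0.0411% of those tested) had groups that separated in both genotypes and in opposite directions. Of the 5, 3 had a symbol and a mean of at least 10 TPM in 1 group. Besides Tmem175 these were H2-K1, the heavy chain of a class I histocompatibility molecule that presents peptides to T cells, and Manea, a mannosidase of the Golgi. H2-K1 was at 1219, 1625, 2295, 1166 and 1264 TPM in wild-type controls and 1113, 791, 612 and 974 TPM with TGF-β1. In knockout libraries it was at 1342, 753, 1475, 1644 and 1476 TPM in controls and 2304, 1706 and 1667 TPM with TGF-β1. It was thus lower after TGF-β1 in wild type and higher in knockout, by less than 2-fold each way (difference -1.31 ± 0.38 SE, limma unadjusted p = 0.00245, adjusted p = 0.997). Class I genes have near-identical neighbours among which RSEM divides reads, so its level is uncertain. Manea was at 5.92 to 37.2 TPM in wild-type controls and 0.06 to 2.30 with TGF-β1, and at 3.95 to 14.8 TPM in knockout controls and 21.9 to 29.7 with TGF-β1 (difference -4.23).

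**Figure D3:**
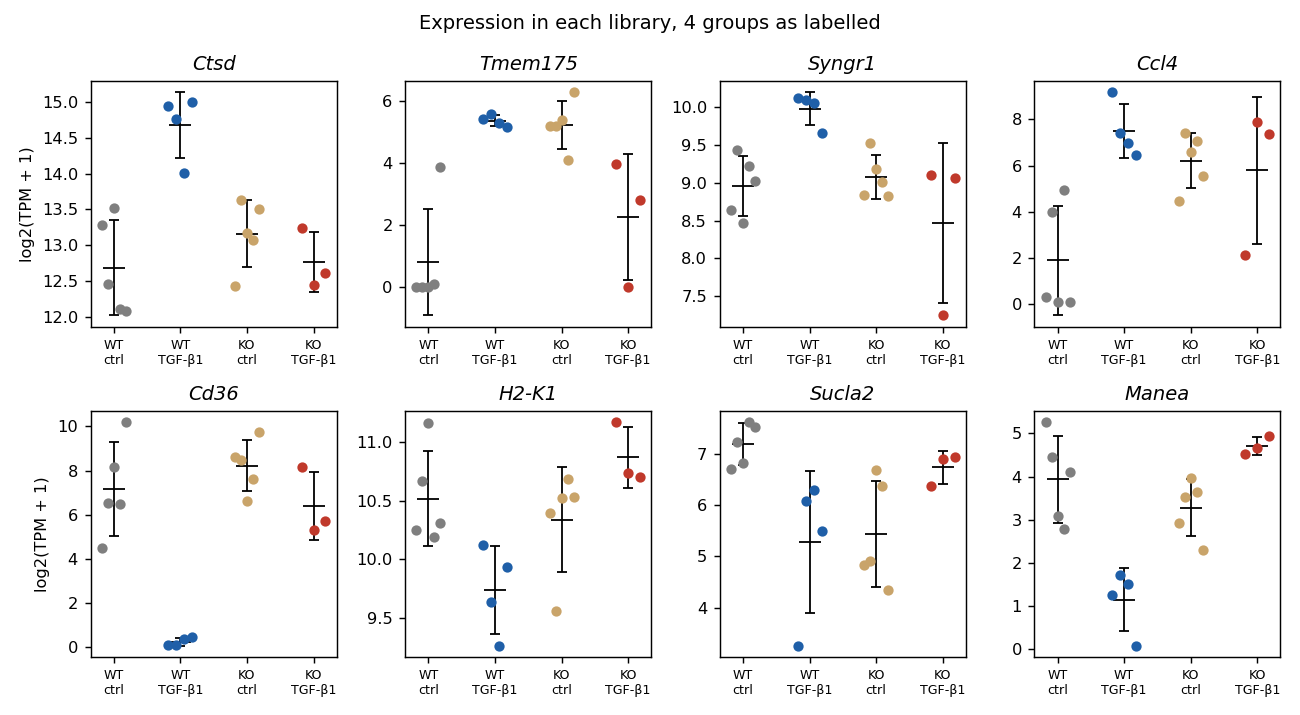
Log2(TPM + 1) (vertical axes) of 8 of the 20 genes of smallest p, with 1 point per library, a bar at the mean and whiskers of 1 SD, in wild-type (WT) and Smad3-knockout (KO) groups as labelled. Ctsd stands at 16485 TPM or more only in the 4 wild-type TGF-β1 libraries, and Cd36 lies at or below 0.36 TPM only there.

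Cd36 and Sucla2 stood lower with TGF-β1 in wild type, with no overlap of the groups, and had a smaller or an upward effect in knockout. Cd36, a scavenger receptor for fatty acids and oxidised lipoproteins, was at 21.5, 93.0, 284, 87.6 and 1161 TPM in wild-type controls and at 0.09, 0.06, 0.29 and 0.36 TPM with TGF-β1. In knockout libraries it was at 396, 361, 97.8, 199 and 861 TPM in controls and at 283, 38.8 and 52.0 TPM with TGF-β1, overlapping ranges. The effects were -6.92 and -1.83, and the difference was -5.08 ± 1.32 (SE; limma unadjusted p = 0.000996, adjusted p = 0.997). With pseudocount 10 it was -2.28. Sucla2, a subunit of mitochondrial succinyl-CoA synthetase in the citric acid cycle, was at 102 to 194 TPM in wild-type controls and 8.58 to 77.1 TPM with TGF-β1, against 19.2 to 102 and 81.4 to 121 TPM in knockout (difference -3.20 ± 0.90 SE, limma unadjusted p = 0.00204). Zfp871, a zinc finger gene, Pdss1, which builds the side chain of coenzyme Q, and the DNA repair genes Ercc3 and Rad51d had differences of -5.70 to -6.64 with wide intervals. In each of these 4 the treated wild-type libraries were at 28.5 TPM or less.

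In Ccl4, Trp53inp1 and Syngr1 the treated wild-type libraries all lay above the wild-type controls, while the knockout groups overlapped. Ccl4, a chemokine that attracts monocytes, was at 0.26, 15.1, 0.08, 29.7 and 0.08 TPM in wild-type controls and 579, 170, 124 and 86.0 TPM with TGF-β1. It was already at 21.3, 169, 95.1, 132 and 46.2 TPM in knockout controls and at 3.43, 236 and 165 TPM with TGF-β1. The difference of 6.01 ± 1.75 (SE; limma unadjusted p = 0.00257) thus went with a control level that was higher in knockout (-4.32, wild type minus knockout, log2). Trp53inp1, a p53 target in stress responses and autophagy, was at 0 to 0.54 TPM in wild-type controls and 3.23 to 28.5 with TGF-β1. It was at or under 1.52 TPM in all knockout libraries (difference 3.21 ± 0.93 SE, limma unadjusted p = 0.00259). Trp53inp1 passed the filter only through the treated wild-type libraries, so that p-value is a description only. Syngr1, a vesicle membrane protein, was at 354 to 689 and 807 to 1109 TPM in wild type and at 454 to 735 and 151 to 549 TPM in knockout (difference 1.63 ± 0.49 SE, limma unadjusted p = 0.00322). Without knockout TGF-β1 library 2 the difference of Syngr1 was 1.02.

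In Fah and Pigv the larger effect was that in knockout. Fah, the last enzyme of tyrosine breakdown, was listed at 0 in all 5 knockout controls and at 17.3, 0.93 and 26.6 TPM with TGF-β1, and was at 2.56 TPM or less in wild type (difference -4.02 ± 0.96 SE, limma unadjusted p = 0.000434). Without knockout TGF-β1 library 2, its low value, Fah passed at -5.20 (limma adjusted p = 0.0258). Fah passed the filter only through the treated knockout libraries, so these p-values are a description only. It was at 0 in all treated wild-type libraries. Pigv, an enzyme of the glycosylphosphatidylinositol anchor, was at 0.21 to 7.43 TPM in knockout controls and 9.55 to 25.0 TPM with TGF-β1 (difference -3.75). Cwc27, a spliceosome-associated isomerase, Rab4a, a GTPase of recycling endosomes, Atg10, an enzyme of autophagosome formation, and Sft2d2, a Golgi membrane protein, had effects of opposite sign in the 2 genotypes. Their differences were 6.86, 5.54, 5.06 and 4.70. Atg10 was at 2.01 TPM or less in wild-type controls and 2.88 to 25.2 TPM with TGF-β1, against 17.2 to 35.5 TPM in knockout controls and 0.03 to 30.4 TPM with TGF-β1.

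**Figure D4:**
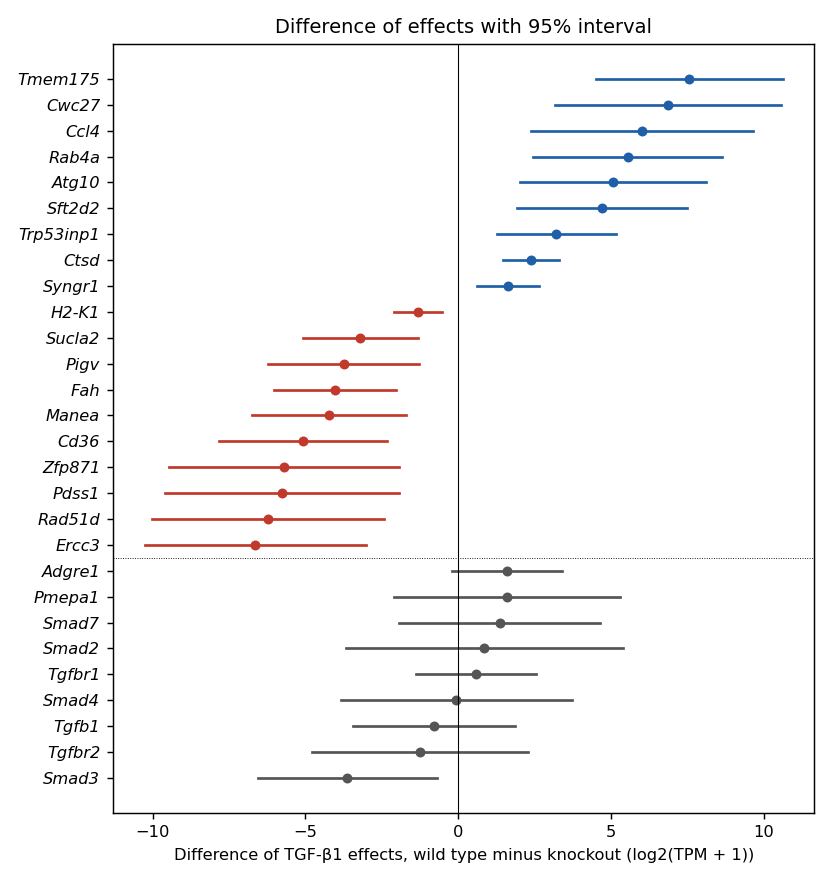
Difference of TGF-β1 effects, wild type minus knockout, in log2(TPM + 1) (horizontal axis), as a point with its 95% limma interval, unadjusted, for 19 of the 20 genes of smallest p (blue, positive; red, negative) and, below the dotted line, for genes of the pathway and Adgre1 (grey). Ctsd and H2-K1 have the shortest intervals of the 19 together with Syngr1, and of the grey genes all but Smad3 have an interval that includes 0.

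Promoter sequences of 4 of these genes are printed because SMAD3 contacts DNA and these are the 2 genes of smallest p in each direction with a single entry in the RefSeq promoter table (GRCm38.p6), which matched 14 of the 20. Each is the 250 bases before the transcription start, on the gene's strand; capitals mark CAGAC or its reverse complement GTCTG, the core of the SMAD box, searched on both strands.
Ctsd, chr7:142387828-142388077, minus strand: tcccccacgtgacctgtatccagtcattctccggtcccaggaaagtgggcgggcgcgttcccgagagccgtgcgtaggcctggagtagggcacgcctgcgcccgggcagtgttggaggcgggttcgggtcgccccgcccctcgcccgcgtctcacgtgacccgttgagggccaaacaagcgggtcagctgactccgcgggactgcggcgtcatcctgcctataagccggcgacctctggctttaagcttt
Tmem175, chr5:108629560-108629809, plus strand: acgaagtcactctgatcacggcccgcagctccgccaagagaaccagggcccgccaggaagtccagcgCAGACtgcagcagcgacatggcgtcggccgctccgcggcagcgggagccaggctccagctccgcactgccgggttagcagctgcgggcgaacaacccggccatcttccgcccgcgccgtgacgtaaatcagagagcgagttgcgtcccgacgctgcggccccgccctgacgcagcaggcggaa
Fah, chr7:84605943-84606192, minus strand: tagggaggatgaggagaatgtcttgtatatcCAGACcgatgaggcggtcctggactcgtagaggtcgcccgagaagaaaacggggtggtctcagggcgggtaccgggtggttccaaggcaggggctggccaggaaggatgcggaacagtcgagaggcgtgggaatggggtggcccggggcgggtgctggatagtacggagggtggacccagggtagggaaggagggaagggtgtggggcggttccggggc
Cd36, chr5:17835897-17836146, minus strand: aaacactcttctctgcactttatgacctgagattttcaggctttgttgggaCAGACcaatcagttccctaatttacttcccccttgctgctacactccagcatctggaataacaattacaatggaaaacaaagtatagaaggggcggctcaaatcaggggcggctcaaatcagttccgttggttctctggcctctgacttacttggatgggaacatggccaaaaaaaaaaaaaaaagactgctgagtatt
Tmem175, Fah and Cd36 each hold the 5-letter box once, and Ctsd does not hold it in this window. Among the 14 matched genes 5 hold it (35.7%), against 42.1% of 27025 first promoters of all genes in the same window. The palindrome GTCTAGAC was in 0 of the 14 and in 0.174% of all promoters.

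Genes of the TGF-β pathway showed no call and mostly wide intervals. Of 25 receptors, ligands and Smads 17 could be tested, 7 with a positive and 10 with a negative difference (median -0.08, against 0.04 over all genes, and -0.59 to 0.19 over the 29 alternatives, with another sign in 5), and Smad3 alone had an unadjusted p under 0.05, where 4.68% of all genes did. Tgfbr1, the signalling receptor, was at 10.45 to 38.6 TPM in wild-type controls, 18.7 to 171 with TGF-β1, 18.7 to 66.7 in knockout controls and 42.8 to 72.4 with TGF-β1, the treated range overlapping the control range within each genotype (difference 0.58, 95% interval -1.4 to 2.55). Tgfbr2 had -1.25 (-4.78 to 2.28), Tgfb1 -0.80 (-3.43 to 1.84), Smad2 0.86 (-3.69 to 5.4), and the shared partner Smad4 -0.07 (-3.84 to 3.71). Each of these rested on single libraries: Smad2, Smad4 and Tgfbr1 changed sign when 1 was left out, Tgfbr2 was -0.19 without wild-type TGF-β1 library 1, and Tgfb1 was -0.07 without wild-type control library 1. In Acvr1, an activin and bone morphogenetic protein receptor, the difference was 3.08 (unadjusted p = 0.0723), and 1.91 without knockout TGF-β1 library 2.

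Of 30 targets and feedback genes of TGF-β, 24 could be tested, 13 positive and 11 negative. In each direction 1 had an unadjusted p under 0.05, against 2.43% (positive) and 2.25% (negative) of all genes. The median of 0.11 had another sign in 5 of the 29 alternatives and was -0.59 without the 6 libraries with many zeros. Pmepa1, which sequesters receptor-activated Smads, was at 13.4, 0, 0, 0 and 30.2 TPM in wild-type controls and 47.6, 39.2, 49.1 and 47.3 TPM with TGF-β1. In knockout libraries it was at 5.79, 4.87, 0, 0.31 and 0.01 TPM in controls and 4.43, 3.10 and 44.7 TPM with TGF-β1, so that 1 of 3 treated knockout libraries reached the treated wild-type range (difference 1.60, 95% interval -2.09 to 5.28). Leaving out 1 treated knockout library gave 0.95 (library 2) to 2.69 (library 3). Smad7, an inhibitor of the receptors that Smad3 is known to induce, was at 0.91 to 18.7 TPM in treated wild type and 0.01 to 35.7 TPM in treated knockout libraries (1.35, -1.94 to 4.64), and the difference was 0.25 without knockout TGF-β1 library 1 and 2.85 without library 2. Cdkn1a, the cell cycle inhibitor p21, had effects of 2.76 in wild type and 2.16 in knockout (difference 0.60, 95% interval -1.21 to 2.41). Skil, a co-repressor in the feedback loop, had -0.05 (-1.77 to 1.67). Tgfbi, a matrix protein named for its induction by TGF-β, was at 299 to 1460 and 40.7 to 1188 TPM in wild type and 47.1 to 637 and 817 to 1992 TPM in knockout, where the treated libraries lay above the controls (difference -3.12 ± 1.20 SE, limma unadjusted p = 0.0168, adjusted p = 0.997). It was -2.03 without wild-type TGF-β1 library 3. Smurf1, a ubiquitin ligase that marks receptors for breakdown, had 3.05 at levels of 11.3 TPM or less. The 20 tested co-activators and co-repressors of Smads had none at an unadjusted p under 0.05. Their median of -0.07 had another sign in 7 of the 29 alternatives and was -1.18 without the 6 libraries. The largest was Crebbp, a histone acetyltransferase, at -1.70, and at -1.12 to -2.74 when single libraries were left out.

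The myofibroblast programme gave little to compare. Of 20 contractile genes 9 could be tested, and 8 of them had a negative difference (median -0.60), none at an unadjusted p under 0.05. Vim, the intermediate filament vimentin, had effects of -1.67 in wild type and -0.80 in knockout (difference -0.87, unadjusted p = 0.0953), and Smtn, a smooth muscle actin-binding protein, had the 1 positive value, 1.74 (0.90 without knockout control library 1). Vcl, which links actin to adhesions, had -1.60 (-2.56 without wild-type TGF-β1 library 2). Acta2, smooth muscle actin, could not be tested: it was at 22.5 TPM in wild-type TGF-β1 library 3 and 8.12 TPM in knockout control library 1, and at 0.12 TPM or less in the other 15. Of 26 collagen and matrix genes 16 were listed at 0 in every library, and the 3 tested, all enzymes that modify collagen, had -1.67 (Plod2), 1.56 (Plod1) and -1.05 (P4ha1). Among 12 tested matrix proteases and inhibitors Adam8, a membrane metalloprotease, was at 768 to 1464 and 249.3 to 536 TPM in wild type and 448 to 1000 and 695 to 764 TPM in knockout (difference -1.23 ± 0.43 SE, limma unadjusted p = 0.0103), and Timp2, a protease inhibitor, had 3.33 (unadjusted p = 0.0444), and 2.09 without knockout TGF-β1 library 2. No other gene of that list had an unadjusted p under 0.05, where 4.68% of all genes did. The list's median was -0.41 and turned to 0.15 without knockout TGF-β1 library 1.

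**Figure D5:**
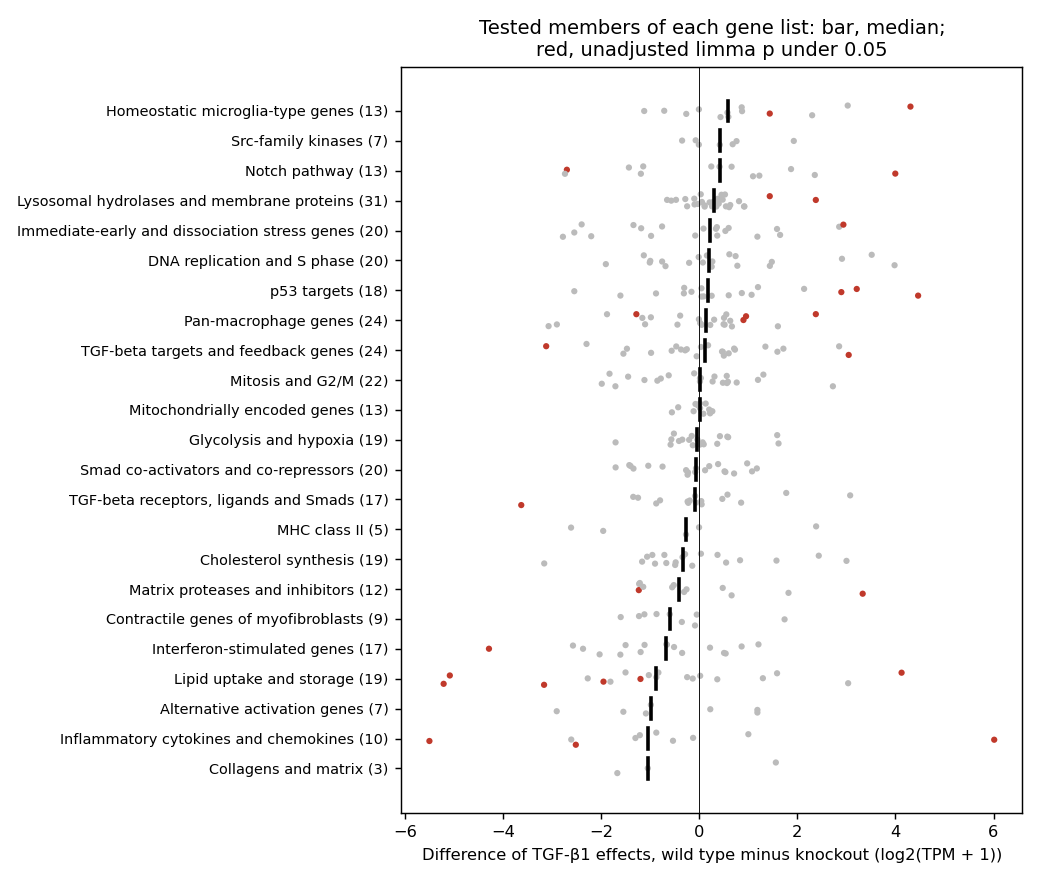
Each point is 1 tested gene of a list, at its difference of TGF-β1 effects, wild type minus knockout, in log2(TPM + 1) (horizontal axis); lists are ordered by median (black bar), with the number tested in brackets, and red marks an unadjusted limma p under 0.05. Lipid uptake and storage holds 6 red points of 19, 5 of them negative. These 5 include Apoe, which is no comparison of responses. No point of any list passed over all genes.

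Lipid uptake and storage genes were mostly negative. Of 19 tested, 13 had a negative and 6 a positive difference (median -0.87), and 6 had an unadjusted p under 0.05, 5 negative and 1 positive, where 4.68% of all genes did; none passed over all genes. Besides Cd36 these were Lpl, lipoprotein lipase, at 1105 to 2639 and 66.7 to 249.3 TPM in wild type and 763 to 3089 and 160 to 1558 TPM in knockout (difference -1.95, unadjusted p = 0.0246, and -1.11 without knockout TGF-β1 library 1), and Plin2, which coats lipid droplets, at 717 to 1634 and 146 to 272 TPM in wild type and 624 to 1474 and 471 to 589 TPM in knockout (-1.20, unadjusted p = 0.0118). The effects were -3.61 in wild type and -1.66 in knockout for Lpl, and -2.20 and -1.01 for Plin2. Cpt1a, which brings fatty acids into mitochondria, was at 22.7 to 70.9 and 0 to 20.95 TPM in wild type and 11.2 to 32.8 and 31.2 to 44.4 TPM in knockout (-3.16, unadjusted p = 0.0166). Apoe, the lipid carrier apolipoprotein E, was at 40.0, 0.48, 34.2, 2053 and 22.6 TPM in wild-type controls and at 0.19 TPM or less in every other group. It passed the filter through the wild-type controls, and no fall could show in knockout, so that its -5.21 (unadjusted p = 0.0120) restates the wild-type effect of -5.25 and is no comparison of responses. The counts of 6 genes under that p and of 5 negative ones include Apoe. Fabp5, a fatty acid chaperone, was the positive one (4.13, unadjusted p = 0.0425), with 0.70 TPM in 1 treated knockout library. The list's median was -0.29 without knockout TGF-β1 library 1 and -0.32 with pseudocount 10, and 3 genes had an unadjusted p under 0.05 without the 6 libraries with many zeros.

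Of 31 lysosomal hydrolases and membrane proteins 23 had a positive difference, where 6240 of all 12158 genes did, and the median was 0.31. An unadjusted p under 0.05 was found for 2 of the 31, Ctsd among them, a share near the 4.68% of all genes. The medians of the effects were 0.24 in wild type and -0.10 in knockout. In 29 alternatives the list's median lay between 0.17 and 0.45.

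Macrophage identity genes had no common direction, with 14 of 24 positive (median 0.14, and -0.27 without knockout TGF-β1 library 1), and 4 had an unadjusted p under 0.05, against 4.68% of all genes. Tyrobp, an adaptor of activating receptors, and Laptm5, a lysosomal membrane protein of blood cells, had differences of 0.90 and 0.96 (unadjusted p = 0.0233 for Tyrobp and 0.0266 for Laptm5), and Lgals3, galectin-3, -1.28 (unadjusted p = 0.0184). Csf1r had effects of 1.31 in wild type and 1.32 in knockout (difference -0.01, 95% interval -1.12 to 1.11). Of the 13 tested genes of homeostatic microglia, a macrophage type whose identity depends on TGF-β, 9 had a positive difference (median 0.60), with effects of 2.74 in wild type and 1.32 in knockout at the median. Tmem119 was at 0 to 3.41 and 0 to 334 TPM in wild type and 0 to 0.20 and 0.38 to 170 TPM in knockout (difference 0.87, 95% interval -3.72 to 5.45), P2ry12 had -0.26 and Cx3cr1 -0.71. Entpd1, an enzyme that breaks down extracellular ATP, had 4.31 (unadjusted p = 0.0126) and was at 25.3 to 124 TPM in knockout controls against 63.1 TPM or less in wild-type controls.

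Of 10 tested inflammatory genes 8 were negative (median -1.04), and 3 had an unadjusted p under 0.05, against 4.68% of all genes. Besides Ccl4 these were the chemokines Ccl9 (-2.51, unadjusted p = 0.00695) and Cxcl2 (-5.50, unadjusted p = 0.0320). Ccl9 was at 114 to 537 and 29.9 to 74.4 TPM in wild type, with no overlap, and at 28.8 to 216 and 102 to 250 TPM in knockout. Of 17 interferon-stimulated genes 12 were negative (median -0.67), with the antiviral gene Rsad2 at -4.28 (unadjusted p = 0.0177). Without knockout TGF-β1 library 2 Rsad2 was at -2.61 and the list's median was 0.20. MHC class II genes (5 tested, median -0.27) and alternative activation genes (7 tested, median -0.98) had none at an unadjusted p under 0.05.

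Among p53 targets 12 of 18 were positive (median 0.17), with 3 at an unadjusted p under 0.05, where 4.68% of all genes were: Trp53inp1, Phlda3 (4.46, unadjusted p = 0.0266), which restrains the kinase Akt, and Mdm2 (2.90, unadjusted p = 0.0305), the ubiquitin ligase of p53. The count of 3 includes Trp53inp1, which passed the filter only through treated wild type. Over the 29 alternatives the count ran from 1 to 4, and the median turned to -0.12 without wild-type TGF-β1 library 4. Phlda3 was at or below 0.07 TPM in wild-type controls and at 62.6 to 274 TPM with TGF-β1, and in knockout libraries at 0 to 23.8 TPM in controls and 0.04, 122 and 30.0 TPM with TGF-β1, and its difference was 2.50 without knockout TGF-β1 library 1. In the Notch pathway 8 of 13 were positive (median 0.42, and -0.17 without wild-type control library 4). Of the 13, 2 had an unadjusted p under 0.05, where 4.68% of all genes did. Hes1, a transcriptional repressor induced by Notch, was at 208, 20.9, 48.1 and 19.2 TPM in treated wild type. It was at 0.13 TPM or less in all other libraries except knockout TGF-β1 library 3 at 21.9 TPM (difference 4.0 ± 1.35 SE, limma unadjusted p = 0.00773). Hes1 passed the filter only through treated wild type, so that p-value is a description only. The Notch count of 2 includes Hes1. Jag1, a Notch ligand, had -2.70 (limma unadjusted p = 0.0319).

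The remaining lists together held 1 gene at an unadjusted p under 0.05. Mitosis genes had positive effects in both genotypes for all 22 tested, with medians of 2.79 in wild type and 2.54 in knockout, and a median difference of 0.03. DNA replication genes (20 tested) had a median difference of 0.21, mitochondrially encoded genes (13) 0.02, glycolysis and hypoxia genes (19) -0.04, cholesterol synthesis genes (19) -0.34 and Src-family kinases (7) 0.42. Immediate-early and stress genes (20) had 0.22, with Dnajb1, a co-chaperone, at 2.94 (unadjusted p = 0.0483), and 1.94 without wild-type control library 4.

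The responses were also set side by side across all genes. Across the 12158 genes the effect in wild type and the effect in knockout, which share no library, had a Pearson correlation of 0.22, and 57.0% had the same sign. The correlation was 0.08 for genes at 1 to 10 TPM, 0.23 at 10 to 100, 0.60 at 100 to 1000 and 0.69 over 1000 TPM; genes of a library are not independent, and the precision also grew with the level. Of 1212 genes with an unadjusted p under 0.05 in wild type (9.97% of those tested), 829 (68.4%) had the same sign in knockout, with a median effect of 2.41 in wild type and, in the same direction, 0.46 in knockout. Chosen in the knockout instead, 721 genes (5.93%) gave 515 (71.4%), with medians of 2.54 and 0.52. A choice by p inflates the effect in the genotype that made it, so these medians do not measure how far the response depends on Smad3. The cause of the smaller effect in the other genotype was not tested. Of the genes under that p in both, 140 had the same direction and 8 opposite ones.

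The 22 genes called for TGF-β1 in wild type were read in the same way, as a description, because the wild-type libraries chose them. In 21 of 22 the knockout effect had the wild-type sign, Ctsd being the exception, and 13 had an unadjusted p under 0.05 in knockout too, against 5.93% of all genes. The median size of effect was 2.58 in wild type and, in that direction, 0.99 in knockout. For 12 of the 22 the difference of effects had an unadjusted p under 0.05, against 4.68% of all genes, but the wild-type effect that chose them is a term of that difference. Ch25h, which makes 25-hydroxycholesterol, lay at the other end, with effects of 7.23 and 6.86 and a difference of 0.37 (95% interval -3.37 to 4.11). Man2b1, lysosomal alpha-mannosidase, had 2.46 and 1.54 (0.92, -0.36 to 2.20), and Il21r, a cytokine receptor chain, 6.16 and 3.63 (2.53, -0.61 to 5.66). Esd, Rnh1 and Anxa2, with effects of -2.21, -1.65 and -1.41 in wild type, had -1.44, -0.83 and -0.80 in knockout. In these 3 and in Plin2, Laptm5, Man2b1 and Ch25h, but in no others of the 22, the groups did not overlap in either genotype. Taken 1 genotype at a time, 339 of all genes (2.79%) did not overlap in wild type and 595 (4.89%) in knockout. The share of all genes separated in both was not computed.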

How the data were processed

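Expression was measured by RNA sequencing of SMART-seq2 cDNA in 17 libraries, per the labels' protocols. The deposited values are TPM, made by the authors with RSEM after FastQC and Trim Galore on build mm9, per the submitters' processing notes; no versions of these tools are named there. The depth behind a value is unknown, and no counting interval could be given. Symbols were taken from GENCODE vM21. Values were analysed as log2(TPM + 1). Limma 3.58.1 in R 4.3.3 (lmFit, eBayes with a trend) was fitted over the 4 groups with no covariate to genes reaching TPM 1 in 3 or more libraries, the contrast being (wild-type TGF-β1 minus control) minus (knockout TGF-β1 minus control), with Benjamini-Hochberg adjustment. Intervals are 95% and unadjusted. The fit was tested on simulated data. Smad3 was also compared by an exact permutation test.

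Genes named are Smad3, Smad2, Smad4, Smad7, Tgfb1, Tgfbr1, Tgfbr2, Pmepa1, Acta2, Col1a1 and Adgre1; called genes or, failing these, the 10 of smallest p a direction at a mean of 10 TPM in 1 group, leaving out clone-type names and pseudogenes; the 2 largest differences of each list; genes called in wild type; and genes separated in opposite directions in the 2 genotypes. List members with a small p or a short interval, other pathway genes and Npy were named after their values were seen. The comparison and lists were chosen with earlier results of these data known. The list gene Ctgf was found under its later symbol Ccn2, and 1 list gene, Hmgcs1, had no ID in the table. Same-numbered libraries of different groups did not deviate together (median correlation -0.01 over 22 pairs, none over 0.1), so numbers were not treated as pairs. No column of values was left unused. Results for some genes are not reported here.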

Additional observations from a re-analysis of the deposited data

Results flagged for a closer look

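In 5 genes every treated library moved one way in wild type and the other way in knockout. The differences of effects were 7.55 for Tmem175, 4.11 for Otud7b, -4.23 for Manea, -1.31 for H2-K1 and -1.76 for ENSMUSG00000090869, an ID with no symbol here; none passed over all genes.

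Single libraries stood apart from the rest of their group in 19 of the 84 group values examined. The genes examined were those always named, those of smallest p and those separated in opposite directions. The treated knockout group, with 3 libraries, was left out. The limits used flag about 1 in 20 for normally distributed values, which log2(TPM + 1) with many zeros is not. In wild-type controls these were Smad7 (6.10 TPM in library 2), Tgfb1 (15.5 in library 1), Tgfbr2 (0.29 in library 5), Tmem175 (13.6 in library 5), Rab4a (1.67 in library 1), Atg10 (2.01 in library 1), Ercc3 (1.80 in library 2) and Zfp871 (0.07 in library 3). In wild-type TGF-β1 libraries they were Pmepa1 (39.2 in library 2), Acta2 (22.5 in library 3), Syngr1 (807 in library 4), Ercc3 (4.99 in library 1), Rad51d (28.5 in library 4) and Pdss1 (11 in library 3). In knockout controls they were Smad3 (1.93 in library 3), Smad2 (1.19 in library 5), Acta2 (8.12 in library 1), Cwc27 (55.3 in library 5) and H2-K1 (753 in library 2). Many of these groups sit at or near 0 in the other libraries.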

How the results depend on the processing

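The count of called genes was 0 in 25 of the 29 alternatives and 1 in the other 4: Gm11336 with no filter on low values, Ctsd with the cell cycle covariate, Gm10157 without wild-type TGF-β1 library 4 and Fah without knockout TGF-β1 library 2 (0 to 1 when single libraries were left out). With the replicate number as a block the count was 0 and the unadjusted count 598, and the block changed no call. The unadjusted count of 569 ran from 464 to 611 without single libraries and stayed within 1.5 times under all alternatives. The Smad3 difference of -3.63 ran from -4.85 to -2.59 without single libraries, and was -3.31 without the 6 libraries with many zeros (exact permutation p = 0.0600). Smad4 turned from -0.07 to 0.82 with pseudocount 0.1 and 0.32 with the block, and ran from -1.07 to 0.82 without single libraries; Smad2 ran from -0.73 to 2.23 and Tgfbr1 from -4.58e-05 to 1.04. Pseudocount 10 shrank differences that rest on low values (Cd36 to -2.28), and left Ctsd at 2.38. The medians of the lipid, lysosomal, contractile, inflammatory and microglia lists kept their sign under the alternatives run, that of mitosis genes did not in 12. TPM without depth limits what low genes can show.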
